A study of Homo sapiens with 10 samples.

Results

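Exons whose length is not a multiple of 3 and which overlap coding sequence were taken from the exon tables of A549 cells. Leaving out or adding such an exon changes the reading frame of everything downstream of it. An exon row was kept if it was longer than 30 nt, if its length left a remainder on division by 3, if it overlapped annotated coding sequence of its gene in GENCODE release 44 on GRCh37, and if the 2 DMSO libraries together held at least 20 inclusion reads and at least 20 exclusion reads for it. Among rows with the same 3′ splice site the row with the most inclusion reads was kept. The rule retained 730 of 270665 listed exon positions, which lay in 419 genes and at 578 loci without overlap. Inclusion reads were split reads that end at either splice site of the exon, and exclusion reads were split reads that span the exon completely. The inclusion level Ψ was computed as inclusion reads divided by the sum of inclusion reads and 2 times the exclusion reads, so that 0 means always skipped and 1 always included. Since the DMSO reads chose the exons, their DMSO levels are given as a description only.

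Not all of these rows were cassette exons in the strict sense. Split reads reached both of the row's own splice sites in DMSO for 317 exons, and for 241 of them, in 203 genes, a junction was also found that skipped this exon alone. These 241 exons are called clear cassettes below. Their reads were not all their own. In 93 of them 1 own splice site had over 2 times the reads of the other, and in 21 under 50% of the exclusion reads came from the junction that skips the exon alone, which left 137 with even reads. Many of the other rows were longer or shorter forms of an exon, whose inclusion reads came from 1 shared splice site. The exact exon was annotated for 668 rows, and 29 rows shared their sequence with another row. The shortest exons had 31 nt, the median was 139.5 nt and the longest row had 5633 nt.

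A messenger RNA is read in triplets, so an exon with 1 or 2 bases beyond a multiple of 3 shifts the frame when it is gained or lost, and the shifted frame usually runs into a premature stop codon. Where that stop lies well upstream of the last exon-exon junction, the transcript is a typical substrate of nonsense-mediated decay (NMD), the surveillance pathway that degrades such messages. Many genes of splicing regulators hold a so-called poison exon, which carries a stop codon and lowers the amount of protein when it is included. Other frame-shifting exons come in mutually exclusive pairs, in which 1 exon replaces the other and the frame is kept.

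The cells were the human lung adenocarcinoma line A549 in all 10 libraries, 2 in each of 5 groups. The controls received DMSO, the solvent. In 2 groups α-amanitin, the toxin of the death cap, which traps RNA polymerase II in slow elongation, was given at 1 or 2 μg/mL for 24 h, and in the other 2 groups 5,6-dichloro-1-β-D-ribofuranosylbenzimidazole (DRB), a nucleoside analogue that blocks the kinase step by which polymerase leaves the promoter-proximal pause, was given at 10 or 25 μg/mL. The groups are called α-amanitin 1, α-amanitin 2, DRB 10 and DRB 25 after these doses. The sources used here do not give how long DRB and DMSO were applied. The comparisons ask how splicing responds when transcription is slowed or blocked. The study calls the replicates of its RNA-seq experiments biological and does not say how they were obtained, so a p-value here covers the variation of 2 libraries a group, whatever its source. In bulk RNA fewer cells that use an exon cannot be told apart from less RNA per cell.

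The libraries held between 2899344 and 6498515 split reads over introns. The fewest came from replicate 1 of DRB 25, which also listed the fewest exons, 122001. The 2 libraries of this group differed most from each other, with a chi-square per degree of freedom of 3.98 against 1.91 to 2.43 in the other groups. Of 10 epithelial and A549 marker genes 4 to 7 had reads, with summed levels of 1813 to 5319 CPM (split reads per gene scaled to a fixed library total), while KRT19, CDH1 and EPCAM had none. Of 10 markers of other cell types 1 or 2 had reads, with summed levels of 6.073 to 155.7 CPM. Junctions with under 3 reads were not listed, so a Ψ of 0 or 1 may hide up to 2 reads per junction.

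The sequences below are from the GRCh37 assembly and written in the sense of the gene. They show where reading ends in 7 genes, described later, when the exon is added or left out. In each, capitals mark the first stop codon met in the changed transcript. In RHBDD2, TMEM126B, STK11 and SRSF3 the stop lay inside the added exon, so it is met before the frame shifts. In UBE2T, STRAP and SLC38A2 the stop was reached downstream when the exon was left out.
RHBDD2, exon of 122 nt added, chr7:75510730-75510759, plus strand: cagagtgttaagTGAcacccactcaatcca
TMEM126B, exon of 172 nt added, chr11:85342216-85342245, plus strand: cttaatctttcaTGAgaaactgaggataga
STK11, exon of 131 nt added, chr19:1216268-1216297, plus strand: tcctggccactcTGAatccacttcctggct
SRSF3, exon row of 1061 nt added, chr6:36567617-36567646, plus strand: ctcaccaccctcTGAatctgcattagccag
UBE2T, exon of 70 nt skipped, chr1:202302409-202302438, minus strand: tcgcaactgtgtTGAcctctattcagctgc
STRAP, exon of 136 nt skipped, chr12:16042882-16042911, plus strand: caggagatgaatTGAtgaccctggctcata
SLC38A2, exon of 125 nt skipped, chr12:46756345-46756374, minus strand: ttggtggcgtcaTAGtctcattacagtgtc

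Mutually exclusive pairs were taken from the annotation, in which no coding transcript with the alternative exon also holds the reference exon. The 3′ splice sites of 3 pairs are shown because their members are compared further on. In these windows the capitals mark the first 3 bases of the exon, and the lower-case bases before them are the end of the intron with its pyrimidine-rich tract.
U2AF1, reference exon of 67 nt, chr21:44520627-44520649, minus strand: tgttgcgttttgtatttcagACC
U2AF1, alternative exon of 67 nt, chr21:44521540-44521562, minus strand: ttatttttttttccccgcagACC
TCF3, reference exon of 236 nt, chr19:1615517-1615539, minus strand: tcccggcgccctccccatagCCC
TCF3, alternative exon of 227 nt, chr19:1612430-1612452, minus strand: gcctcggtgctgtgacccagCAG
MACROH2A1, reference exon of 100 nt, chr5:134688733-134688755, minus strand: cctcatgcttttctttgcagCTG
MACROH2A1, alternative exon of 91 nt, chr5:134686601-134686623, minus strand: catttgtttacctgttatagTTG
The U2AF1 exons have the same length and start with the same 3 bases. A U2AF1 transcript with the alternative exon in front of the reference exon meets a stop in the second of them, shown with the stop codon in capitals.
U2AF1, both exons, chr21:44520586-44520615, minus strand: gaacatttaccgTAAccctcaaaactcttc

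The exons differed widely in their DMSO level, from 0.00277 to 0.999 with a median Ψ of 0.436. They rested on a median of 86.5 inclusion and 47.0 exclusion reads over both DMSO libraries. Of the 730 exons, 403 had 1 base and 327 had 2 bases beyond a multiple of 3. A reference transcript per gene, MANE Select for 695 exons, contained 235 of them, lacked 203 and held another form of 290, while 2 had none. Among clear cassettes 142 were in the reference transcript, with a median DMSO Ψ of 0.730, and 81 were absent from it, with a median of 0.179. The 381 clear cassettes that met the same rule but preserve the frame had a median of 0.465.

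The coding consequence was read from the reference transcript by removing or adding the exon. A stop codon more than 50 nt before the last junction, the textbook position for NMD, followed from skipping 72 of the 142 clear cassettes in the reference. In 55 the new stop lay later and 14 held the start codon. Of the 81 absent from the reference, 51 brought an early stop when included, in 40 of them within the exon itself. For comparison, skipping gave an early stop for 1 of 290 frame-preserving clear cassettes of the reference, and including one gave an early stop for 21 of 67 that the reference lacked. These shares follow from the rule and from the annotation, and not from the treatments.

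In sequence the clear cassettes resembled other coding exons. Their median length was 116 nt, against 93 nt for frame-preserving clear cassettes and 121 nt for 71068 constitutive coding exons. The median GC content of the exons was 49.64%, against 49.21% and 48.12%. The 5′ splice site, compared over 9 positions with the consensus CAG at the exon end and GTAAGT at the intron start, matched at a median of 6 positions in all 3 sets, and 13, 13 and 14 of the 18 intron bases searched before the 3′ splice site were pyrimidines. These are descriptions, without a test.

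Inclusion and exclusion reads of each exon were fitted with a quasi-binomial model, and p-values were adjusted by Benjamini and Hochberg's method over all exons tested. An exon was called where the adjusted p was below 0.05. With α-amanitin 727 of the 730 exons could be tested, and with DRB 612, since 118 had too few reads in that fit. Under α-amanitin 1, 0 of 727 passed, with 0% of all 10341 exons called. Here 54 had an unadjusted p below 0.05, limma on log2 odds called 0, and pooling the reads for Fisher's exact test, which ignores the spread between libraries, called 62. By this last test 9.37%, 32.4%, 25.4% and 70.4% of all exons were called in the 4 comparisons with DMSO. Under α-amanitin 2, 3 of 727 passed, 2 higher and 1 lower, or 0.413%. Of all exons 0.116% were called, 0.058% in each direction, and of the 2278 exons with the same minimum of reads in DMSO 0.307%. Without either DMSO library 0 passed, and without replicate 2 of α-amanitin 2 the count was 37.

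DRB gave more calls. Under DRB 10, 45 of 612 passed, 20 higher and 25 lower, in 34 genes, or 7.35%. All 10875 exons gave 4.23%, of which 1.32% were higher and 2.91% lower, and the 1898 exons with the same minimum of reads gave 8.69%, with 3.37% higher and 5.32% lower. Without replicate 1 of DRB 10 the count was 28. Under DRB 25, 183 of 612 passed, 63 higher and 120 lower, in 128 genes, or 29.9%. All exons gave 51.6%, of which 8.16% were higher and 43.4% lower, and those with the same minimum gave 33.1%, with 11.9% higher and 21.2% lower. Exons without exclusion reads in DMSO could enter the set of all exons through exclusion reads with DRB, and could only be called lower. The share of all exons called lower is thus partly set by the filter, here and below. Leaving out replicate 1 of DRB 25, the library with the fewest listed exons, gave 186 calls. The exons with the same minimum of reads include the frame-shifting ones. The 1286 others of them gave 9.33% with DRB 10 and 34.6% with DRB 25, of which 12.7% were higher and 21.9% lower, beside 7.35% and 29.9% of the frame-shifting exons. The difference was not tested.

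**Figure D1:**
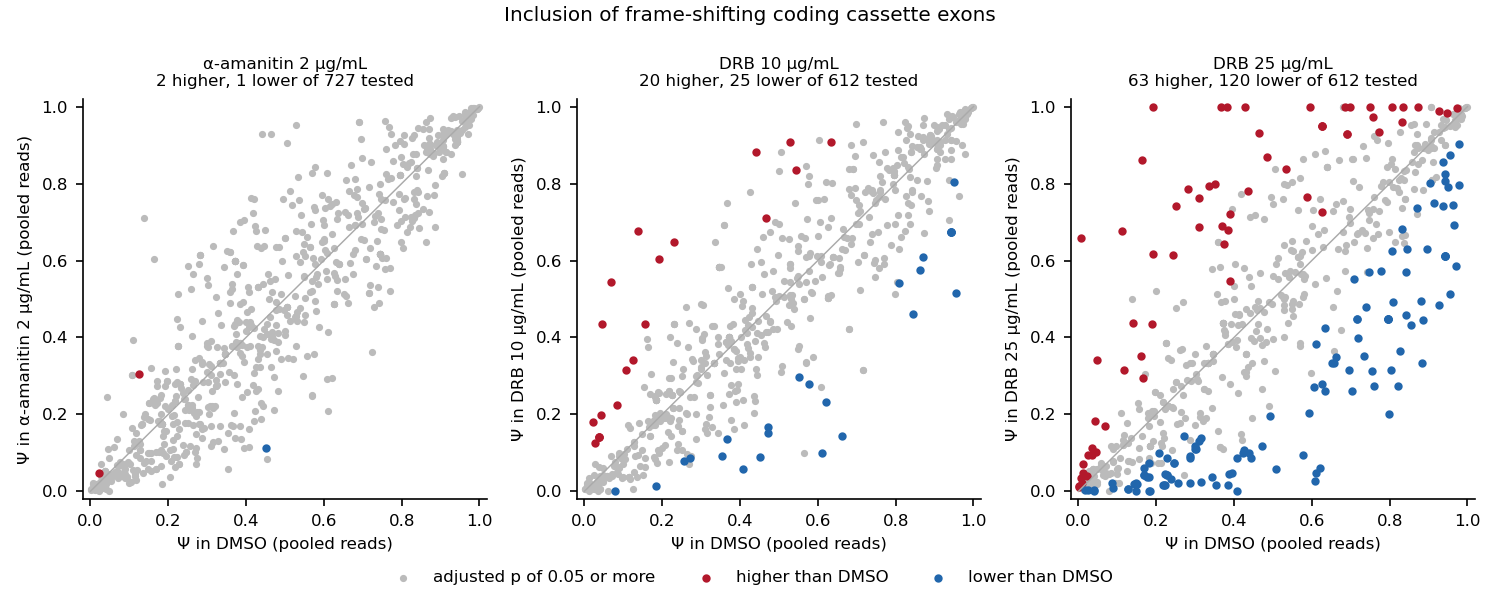
Each point is a frame-shifting exon tested. The horizontal axis is its Ψ in DMSO and the vertical axis its Ψ in the treated group, both from reads pooled over 2 libraries (no unit, 0 to 1), with exons called higher in red, called lower in blue and others in grey. At α-amanitin 2, 3 of 727 exons are coloured, with DRB 10, 45 of 612 and with DRB 25, 183 of 612, most of them below the diagonal.

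The signed median change in Ψ was small under every treatment, but rises and falls offset each other in it. With DRB 25 the lower and upper quartiles of the change were -0.109 and 0.0507. The median change in Ψ of the exons tested was -0.00526 with α-amanitin 1 and -0.00613 with α-amanitin 2, -0.00192 with DRB 10 and -0.00886 with DRB 25. Over all exons tested the median with DRB 25 was -0.0759, and over exons with the same minimum of DMSO reads -0.011. The filter on exclusion reads, as said above, partly sets the first of these 2 medians. The median Ψ per library lay between 0.429 and 0.464 in all 10 libraries, and both extremes were libraries of DRB 25. In the clear cassettes the DRB 25 libraries had a wider lower range than DMSO, with a lower quartile of 0.0957 and 0.143 against 0.220 and 0.216. An exon entered the values of a library only with a Ψ denominator of at least 10 in it, so the sets differ. With DRB 25 they held 209 and 227 clear cassettes, against 241 in DMSO, and 619 and 682 of all 730 exons.

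Clear cassettes had calls in both directions too. At DRB 25, 71 of 205 passed, 22 higher and 49 lower, in 64 genes, or 34.6%, with a median change of -0.0188. The frame-preserving clear cassettes gave 97 of 307, 34 higher and 63 lower, or 31.6%, with a median change of -0.0219. With DRB 10 the counts were 15 of 205, 8 higher and 7 lower, against 30 of 307, 14 higher and 16 lower. No test of the difference between frame-shifting and frame-preserving exons was made. Without the clear cassettes that share sequence with another row, 67 of 191 passed with DRB 25, and of those with even reads 45 of 117, 13 higher and 32 lower.

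**Figure D2:**
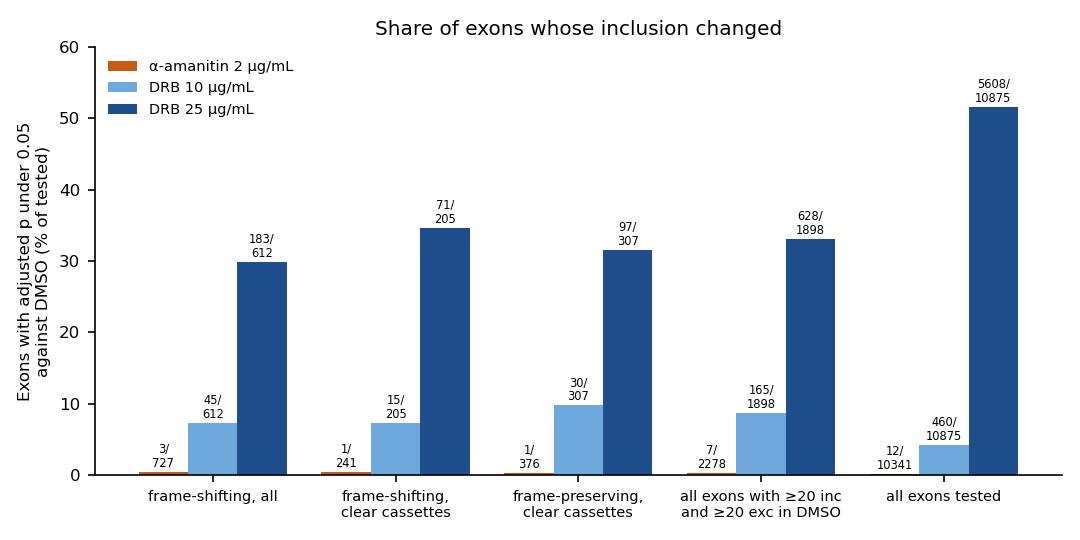
Bars give the percentage of tested exons called at an adjusted p below 0.05 (vertical axis, from 0) for sets of exons, in the comparisons of α-amanitin 2, DRB 10 and DRB 25 with DMSO. The frame-shifting exons reach 0.413%, 7.35% and 29.9%, beside 0.307%, 8.69% and 33.1% of all exons with the same minimum of DMSO reads, which include them.

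The calls were also counted by coding consequence, without a test between the classes. At the high DRB dose, 59 clear cassettes of the reference transcript whose skipping causes an early stop were tested. Of these, 14 passed, 1 higher and 13 lower, with a median change of -0.0217. Of 45 tested clear cassettes whose inclusion causes an early stop 18 passed, 9 higher and 9 lower, with a median change of 0.00807. Among all 205 clear cassettes, 10.7% were called higher and 23.9% lower, so falls outnumbered rises in the whole set too. With DRB 10 the counts in the same 2 classes, of 59 and 45 exons, were 1 higher and 3 lower, and 3 higher and 2 lower. All 205 clear cassettes gave 3.9% higher and 3.41% lower at that dose. At the high DRB dose, clear cassettes with a mean DMSO Ψ under 0.5 gave 41 calls of 97, 14 higher and 27 lower. Those at or above 0.5 gave 30 of 108, 8 higher and 22 lower.

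**Figure D3:**
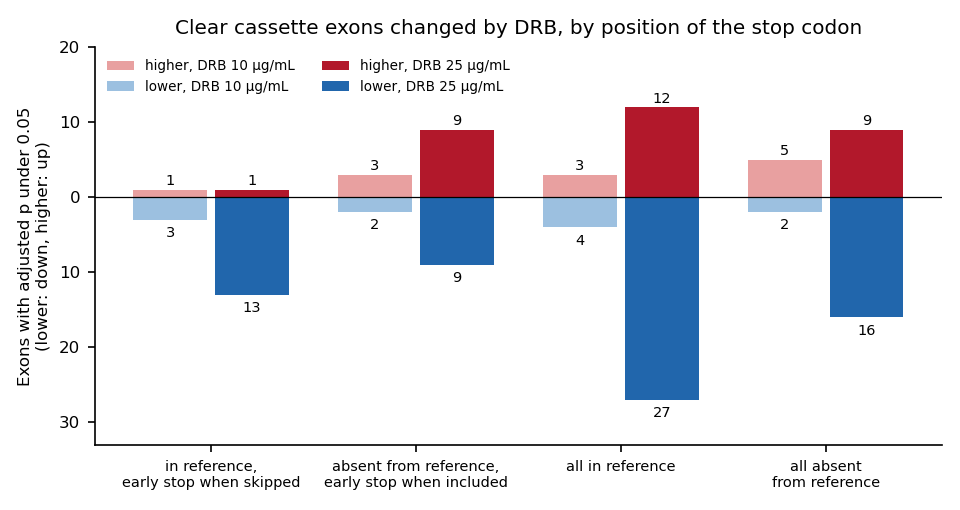
Counts of clear cassettes called higher (upward) and lower (downward) than in DMSO (vertical axis, number of exons) with DRB 10 and DRB 25. Exons are grouped by their place in the reference transcript and by the stop codon that skipping or including them gives. With DRB 25 the exons whose skipping gives an early stop show 1 call upward and 13 downward, and those whose inclusion gives an early stop show 9 upward and 9 downward.

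The largest fall among clear cassettes that passed was in UBE2T, which encodes an E2 ubiquitin-conjugating enzyme of the Fanconi anaemia pathway of DNA repair. Its exon of 70 nt (chr1:202304117-202304186, minus strand) had a Ψ of 0.818 and 0.786 in DMSO, 0.696 and 0.739 with α-amanitin 1, 0.543 and 0.755 with α-amanitin 2, 0.699 and 0.695 with DRB 10, and 0 and 0.304 with DRB 25. Only the last group lay clearly apart, and its change of -0.599 passed (adjusted p = 0.00583). It rested on 7 inclusion and 14 exclusion reads, and the level of the gene fell by 5.96 on the log2 scale at this dose (SE 1.05). Without the exon the frame ends at the stop shown above, after 84 of 197 residues.

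The exon of 136 nt of STRAP, a WD-repeat protein bound to the SMN complex that assembles spliceosomal RNPs, lies at chr12:16036475-16036610 on the plus strand. Its Ψ was 0.915 and 0.882 in DMSO, 0.905 and 0.914 with α-amanitin 1, 0.852 and 0.903 with α-amanitin 2, 0.890 and 0.934 with DRB 10, and 0.496 and 0.702 with DRB 25. The DRB 25 libraries were the 2 lowest of the 10, although apart from each other, and the change of -0.267 passed (adjusted p = 0.00418). Skipping leaves 48 of 350 residues. SLC38A2, a sodium-coupled transporter of neutral amino acids, contained its exon of 125 nt (chr12:46756804-46756928, minus strand) at 0.949 and 0.984 in DMSO, 0.974 and 0.977 with α-amanitin 1, 0.971 and 0.968 with α-amanitin 2, 0.969 and 1.0 with DRB 10, and 0.657 and 0.738 with DRB 25. All libraries but those at the high DRB dose were near full inclusion. The change was -0.275 (adjusted p = 0.00144), though limma on log2 odds gave an adjusted p of 0.0742.

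TM4SF1, a surface protein with tetraspanin-like topology, gave the best covered example, with 1560 inclusion and 200 exclusion reads for its exon of 146 nt with DRB 25. Ψ was 0.971 and 0.982 in DMSO, 0.973 to 0.980 in the 4 α-amanitin libraries, 0.964 and 0.972 with DRB 10, and 0.749 and 0.824 with DRB 25 (change -0.181, adjusted p = 0.000449). The exon of 113 nt of XRCC6, which encodes the Ku70 subunit of the end-joining repair complex, went from 0.905 and 0.924 in DMSO to 0.711 and 0.776 with DRB 25 (change -0.165, adjusted p = 0.00322), while the 6 libraries of the other treatments lay between 0.882 and 0.959. Skipping it leaves 35 of 609 residues. MOK, a kinase related to the MAP kinases, included its exon of 115 nt at 0.689 and 0.714 in DMSO and at 0.217 and 0.289 with DRB 25 (change -0.439, adjusted p = 0.000869). In all 3 genes the 2 groups did not overlap.

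Exons of UPP1 and EMC4 fell at both DRB doses. The exon of 118 nt of UPP1, uridine phosphorylase of pyrimidine salvage, had a Ψ of 0.416 and 0.526 in DMSO, 0.220 and 0.339 with α-amanitin 1, 0.175 and 0.243 with α-amanitin 2, 0.123 and 0.241 with DRB 10, and 0.086 and 0.138 with DRB 25. Every treated library was below both DMSO libraries. The change passed for DRB 10 (-0.305, adjusted p = 0.0146, lost without 1 of its libraries at 0.192) and for DRB 25 (-0.354, adjusted p = 0.00275), but not for α-amanitin 2 (-0.261, adjusted p = 0.0876). Of its 121 exclusion reads in DMSO 10 skipped this exon alone. EMC4, a subunit of the ER membrane protein complex, contained its exon of 161 nt at 0.819 and 0.800 in DMSO, 0.812 and 0.705 with α-amanitin 1, 0.757 and 0.766 with α-amanitin 2, 0.607 and 0.487 with DRB 10, and 0.441 and 0.523 with DRB 25. The DRB libraries of both doses lay below the other 6. The change passed with DRB 10 (-0.268, adjusted p = 0.0405) and with DRB 25 (-0.316, adjusted p = 0.00396). The first of these was lost under several alternatives, among them without replicate 2 of that dose (adjusted p = 0.321).

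Genes of the mitochondrion were described from a list of mitochondrial ribosome, respiratory chain and import genes. The list is not complete. It lacks TMEM126B, an assembly factor of respiratory complex I described below, whose exon was called higher with DRB 25. Of its 22 exons in 14 genes 19 were tested with DRB 25, and 0 were called higher and 9 lower, with a median change of -0.0691, where all exons with the same minimum of reads gave -0.011. Of all exons tested 8.16% were higher and 43.4% lower, and of those with the same minimum 11.9% and 21.2%. The 9 rows belong to MRPL2, COX20 and MRPS18C, with 2 rows each that share reads, and to UQCRH, TIMM17B and MRPL52. Among 10 clear cassettes of the list 6 were lower and 0 higher, with a median of -0.108, beside 23.9% lower and 10.7% higher of all clear cassettes tested. At DRB 10, 1 of the 19 tested exons of the list was lower, beside 2.91% of all exons tested and 5.32% of those with the same minimum.

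COX20, an assembly factor of cytochrome c oxidase, included its exon of 115 nt (chr1:245005246-245005360, plus strand) at 0.835 and 0.868 in DMSO, 0.783 and 0.765 with α-amanitin 1, 0.673 and 0.773 with α-amanitin 2, 0.783 and 0.829 with DRB 10, and 0.403 and 0.443 with DRB 25. Both libraries at the high DRB dose were well below the other 8 (change -0.422, adjusted p = 0.000804), and the level of the gene did not pass (log2 change -0.11, SE 0.29). In DMSO 230 inclusion reads lay at the 5′ splice site of this exon and 52 at its 3′ splice site, so the reads do not identify this exon alone. Skipping leaves 24 of 118 residues. The exon of 74 nt of MRPL2, a protein of the large mitochondrial ribosomal subunit, was at 0.846 and 0.794 in DMSO, 0.790 and 0.709 with α-amanitin 1, 0.750 and 0.638 with α-amanitin 2, 0.875 and 0.836 with DRB 10, and 0.172 and 0.467 with DRB 25. The call with DRB 25 (change -0.549, adjusted p = 0.00623) rested on 12 inclusion and 16 exclusion reads and was lost without replicate 1 of that dose, at an adjusted p of 0.173. MRPS18C, of the small subunit, went with its exon of 58 nt from 0.797 and 0.892 in DMSO to 0.421 and 0.476 with DRB 25 (change -0.384, adjusted p = 0.00589). The 6 libraries of the other treatments lay between 0.735 and 0.841, in the range of DMSO or just under it.

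UQCRH, the hinge protein of respiratory complex III, is the only gene of this list with a call with DRB 10. Its exon of 43 nt was at 0.953 and 0.946 in DMSO, 0.936 and 0.953 with α-amanitin 1, 0.915 and 0.949 with α-amanitin 2, 0.743 and 0.854 with DRB 10 (adjusted p = 0.0244), and 0.781 and 0.797 with DRB 25 (adjusted p = 0.00198). The 2 doses of DRB overlapped. TIMM17B, a subunit of the inner membrane translocase, included an exon of 103 nt at 0.149 and 0.155 in DMSO and at 0 and 0.027 with DRB 25 (adjusted p = 0.0185). MRPL52 went with its exon of 65 nt from 0.950 and 0.930 to 0.896 and 0.838 (adjusted p = 0.0342), a small step beside those of COX20 and MRPS18C.

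Of the exons that the reference transcript lacks and that bring a stop codon, several were nearly lost with DRB. SAT1 encodes the acetyltransferase that starts the breakdown of spermidine and spermine, and its poison exon is a known switch in polyamine control. Its exon of 110 nt (chrX:23802411-23802520, plus strand) was at 0.36 and 0.348 in DMSO, 0.154 and 0.156 with α-amanitin 1, 0.066 and 0.045 with α-amanitin 2, 0.087 and 0.096 with DRB 10, and 0.014 and 0.020 with DRB 25. The 8 treated libraries were all below DMSO, and the higher dose of each drug lay below the lower dose. The change passed with DRB 25 (-0.338, adjusted p = 0.000292) and with DRB 10 (-0.264, adjusted p = 0.0135), where it was lost without either DMSO library (adjusted p = 0.213 and 0.0626) and without replicate 1 of DRB 10 (adjusted p = 0.0519). At α-amanitin 2 it did not pass (-0.298, adjusted p = 0.0596). The level of SAT1, relative to the other genes of a library, rose by 2.63 on the log2 scale with DRB 25 (SE 0.36, limma adjusted p = 0.0021). Inclusion reads were listed only at the 5′ splice site of this exon, 43 in DMSO, so it is not among the clear cassettes.

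RHBDD2, a membrane protein with a rhomboid-like domain, included its exon of 122 nt at 0.237 and 0.102 in DMSO, 0.113 and 0.081 with α-amanitin 1, 0 and 0.044 with α-amanitin 2, 0.015 and 0.016 with DRB 10, and 0 and 0 with DRB 25. With DRB 25 no inclusion read was listed beside 91 exclusion reads (change -0.184, adjusted p = 0.00392). BRD2, a bromodomain reader of acetylated histones, included its exon of 92 nt at 0.2 and 0.250 in DMSO, 0.104 and 0.117 with α-amanitin 1, 0.089 and 0.088 with α-amanitin 2, 0.146 and 0.143 with DRB 10, and 0.026 and 0.056 with DRB 25. Replicates were close in each group, and the change of -0.180 passed with DRB 25 (adjusted p = 0.00306). The level of BRD2, relative to the other genes, rose there by 1.17 on the log2 scale (SE 0.12).

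KIFC3, a kinesin that moves towards microtubule minus ends, included its exon of 139 nt at 0.239 and 0.273 in DMSO, 0.132 and 0.165 with α-amanitin 1, 0.133 and 0.113 with α-amanitin 2, 0.1 and 0.061 with DRB 10, and 0.019 and 0.024 with DRB 25 (change -0.234, adjusted p = 0.000571). The treated libraries were all below DMSO. CTSC, the lysosomal protease cathepsin C, included its exon of 85 nt at 0.27 and 0.211 in DMSO, 0.228 and 0.198 with α-amanitin 1, 0.121 and 0.120 with α-amanitin 2, 0.106 and 0.108 with DRB 10, and 0.017 and 0.042 with DRB 25 (change -0.208, adjusted p = 0.000866). The lower α-amanitin dose overlapped DMSO and the other groups did not. The exclusion reads of both exons came mostly from junctions that span more than the exon, as 5 of 122 in KIFC3 and 4 of 194 in CTSC skipped it alone in DMSO.

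Other exons of the same class rose. TMEM126B, an assembly factor of respiratory complex I, included its exon of 172 nt, which carries the stop shown above, at 0.516 and 0.364 in DMSO, 0.395 and 0.368 with α-amanitin 1, 0.375 and 0.439 with α-amanitin 2, 0.2 and 0.211 with DRB 10, and 0.783 and 0.778 with DRB 25. The 2 DRB doses thus lay on opposite sides of DMSO. The rise with DRB 25 passed (0.344, adjusted p = 0.00944), although not without replicate 2 of DMSO (adjusted p = 0.0886), the change with DRB 10 did not (-0.231, adjusted p = 0.0798), and the doses differed from each other by 0.575 (adjusted p = 0.00135). STK11, the kinase LKB1 that activates AMPK, included its exon of 131 nt at 0.107 and 0.126 in DMSO, 0.158 and 0.072 with α-amanitin 1, 0.198 and 0.099 with α-amanitin 2, 0.141 and 0.190 with DRB 10, and 0.319 and 0.312 with DRB 25. The high DRB dose was above all other libraries (change 0.199, adjusted p = 0.0161). This call was lost without either DMSO library or without replicate 2 of the dose, at adjusted p of 0.0509 to 0.0802.

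**Figure D4:**
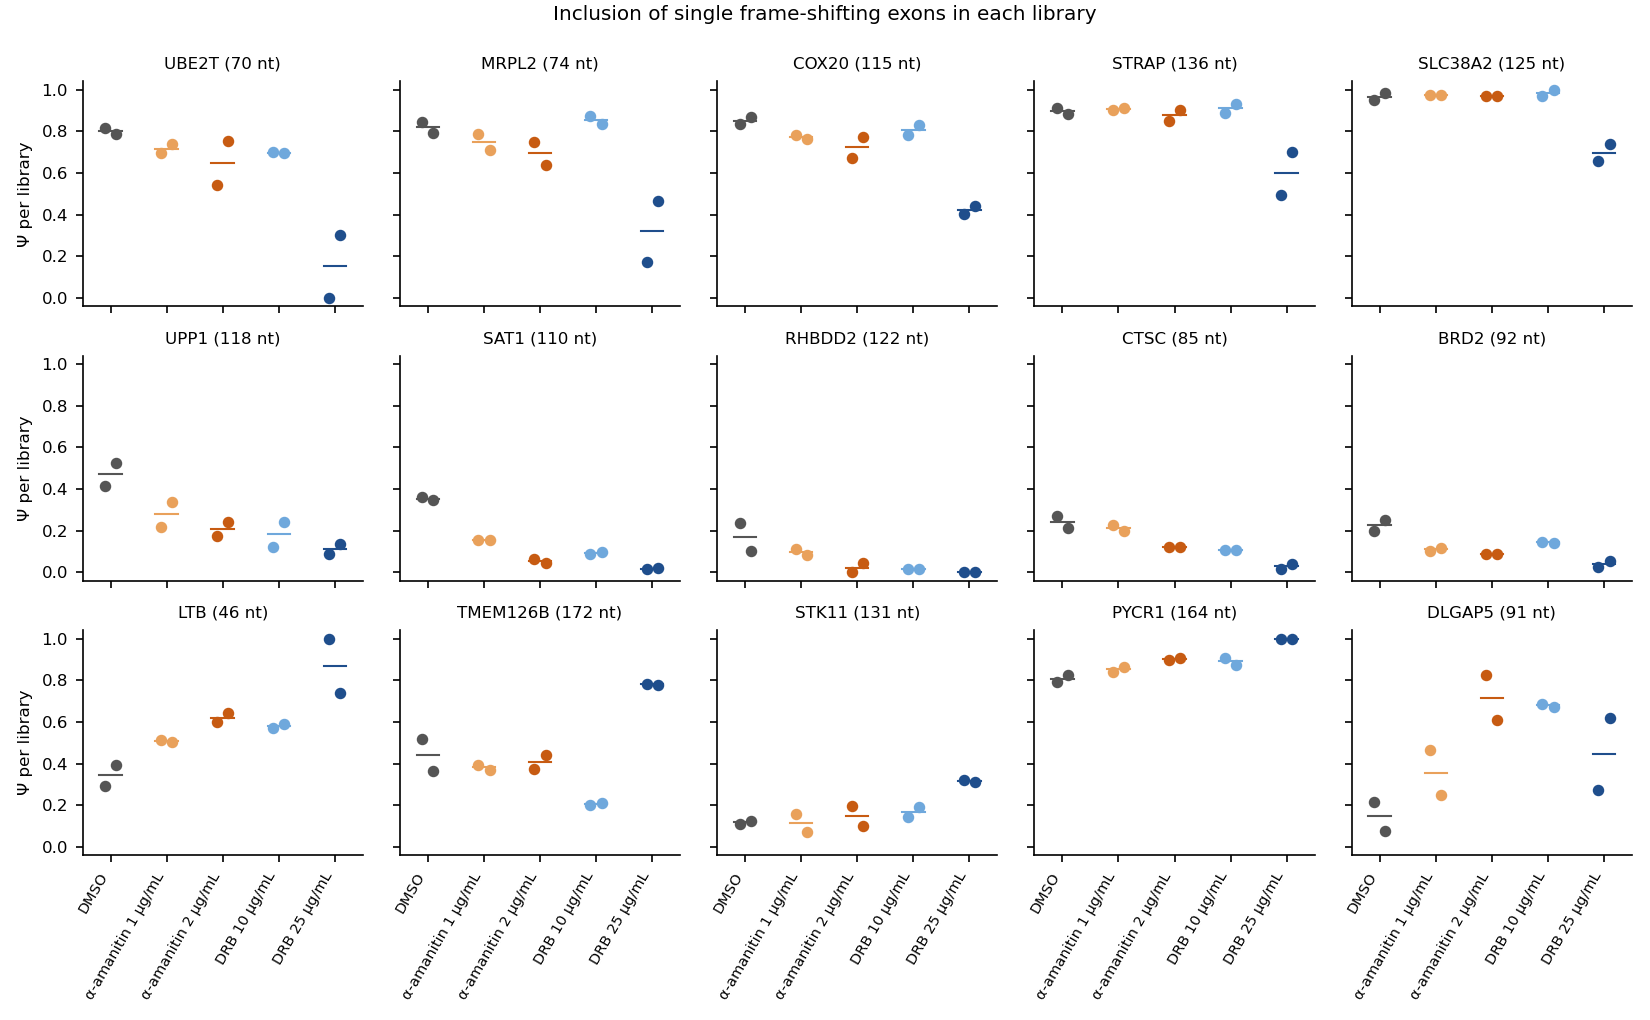
Ψ (vertical axis, 0 to 1) of 15 frame-shifting exons in each of the 10 libraries, grouped along the horizontal axis as DMSO, α-amanitin 1, α-amanitin 2, DRB 10 and DRB 25. Points are libraries and short lines mark the group means. UBE2T, COX20, STRAP and SLC38A2 are lowest with DRB 25, and LTB, STK11 and PYCR1 are highest there. SAT1, UPP1, BRD2, UBE2T and COX20 lie below DMSO in every treated library.

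Exons of the reference transcript also rose. LTB, lymphotoxin beta of the tumour necrosis factor family, included its exon of 46 nt at 0.294 and 0.393 in DMSO, 0.511 and 0.505 with α-amanitin 1, 0.6 and 0.642 with α-amanitin 2, 0.571 and 0.590 with DRB 10, and 1.0 and 0.739 with DRB 25. All treated libraries were above DMSO, but only DRB 25 passed (change 0.450, adjusted p = 0.00851, with 48 inclusion and 6 exclusion reads). PYCR1, an enzyme of proline synthesis, included its exon of 164 nt at 0.792 and 0.824 in DMSO, 0.841 and 0.866 with α-amanitin 1, 0.897 and 0.908 with α-amanitin 2, 0.906 and 0.876 with DRB 10, and 1.0 and 1.0 with DRB 25, where 281 inclusion reads and no exclusion read were listed (change 0.193, adjusted p = 0.00337). G6PC3, a catalytic subunit of glucose-6-phosphatase, went with its exon of 119 nt from 0.755 and 0.761 to 1.0 and 0.956 (change 0.216, adjusted p = 0.00525). The exon of 67 nt of KLC1, a light chain of kinesin, went from 0.569 and 0.625 to 1.0 and 1.0 (adjusted p = 0.0203), though limma on log2 odds gave an adjusted p of 0.0585.

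The U2AF1 pair, in the gene of the small subunit of the factor that binds the 3′ splice site AG, gave calls for its alternative exon and none for its reference exon against DMSO. The reference exon had a Ψ of 0.687 and 0.723 in DMSO, 0.823 and 0.698 with α-amanitin 1, 0.744 and 0.730 with α-amanitin 2, 0.769 and 0.726 with DRB 10, and 0.707 and 0.878 with DRB 25, with no call (adjusted p = 0.182 with DRB 25). The alternative exon had 0.311 and 0.307 in DMSO, 0.244 and 0.346 with α-amanitin 1, 0.322 and 0.326 with α-amanitin 2, 0.389 and 0.343 with DRB 10, and 0.843 and 0.709 with DRB 25. Both libraries at the high DRB dose were far above the other 8, a change of 0.454 (adjusted p = 0.00056) that passed under all alternatives run. In both of these libraries each exon of the pair thus had a Ψ of at least 0.707. Against DRB 10 the alternative exon was higher by 0.402 (adjusted p = 0.00176). The level of U2AF1 did not pass (log2 change 0.39, SE 0.29).

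TCF3 encodes the E proteins E12 and E47, which differ by such a pair. At DRB 25 the 236-nt exon fell from 0.684 and 0.631 in DMSO to 0.310 and 0.373 (change -0.311, adjusted p = 0.0171), and the 227-nt exon rose from 0.333 and 0.429 to 0.7 and 0.617 (change 0.267, adjusted p = 0.0423). In the 6 libraries of the other treatments the 236-nt exon lay between 0.603 and 0.790 and the 227-nt exon between 0.374 and 0.437, so the order of the pair was turned at the high DRB dose alone. The first call was lost without replicate 1 of DMSO or without either library of the dose, at adjusted p up to 0.0858, and the second without any one library of the contrast, at up to 0.218.

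MACROH2A1, which encodes the histone variant macroH2A1, moved at other doses. Its 91-nt exon had a Ψ of 0.123 and 0.125 in DMSO, 0.238 and 0.206 with α-amanitin 1, 0.341 and 0.278 with α-amanitin 2, 0.354 and 0.332 with DRB 10, and 0.182 and 0.176 with DRB 25. The 100-nt exon had 0.866 and 0.858 in DMSO, 0.746 and 0.750 with α-amanitin 1, 0.583 and 0.694 with α-amanitin 2, 0.525 and 0.612 with DRB 10, and 0.768 and 0.797 with DRB 25. All treated groups lay on the same side of DMSO for each exon, and the high DRB dose was nearest to it. For the 91-nt exon the rise passed with α-amanitin 2 (0.182, adjusted p = 0.0335) and with DRB 10 (0.217, adjusted p = 0.00225) and not with DRB 25 (0.054, adjusted p = 0.0514). For the 100-nt exon the fall passed with DRB 10 (-0.286, adjusted p = 0.00575), while α-amanitin 2 gave an adjusted p of 0.0596. Compared directly, the DRB doses differed by -0.163 for the 91-nt exon (adjusted p = 0.00326) and by 0.211 for the 100-nt exon (adjusted p = 0.00575). By limma on log2 odds these differences had adjusted p of 0.0633 and 0.0529, and that of the 100-nt exon was also lost without replicate 1 of DRB 10 (adjusted p = 0.0596). Of the exclusion reads in DMSO, 6 of 518 skipped the 91-nt exon alone and 6 of 60 the 100-nt exon. The α-amanitin call was lost under 5 alternatives, among them without either DMSO library (adjusted p = 0.213 and 0.205), and by limma on log2 odds the DRB 10 rise had an adjusted p of 0.0637.

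**Figure D5:**
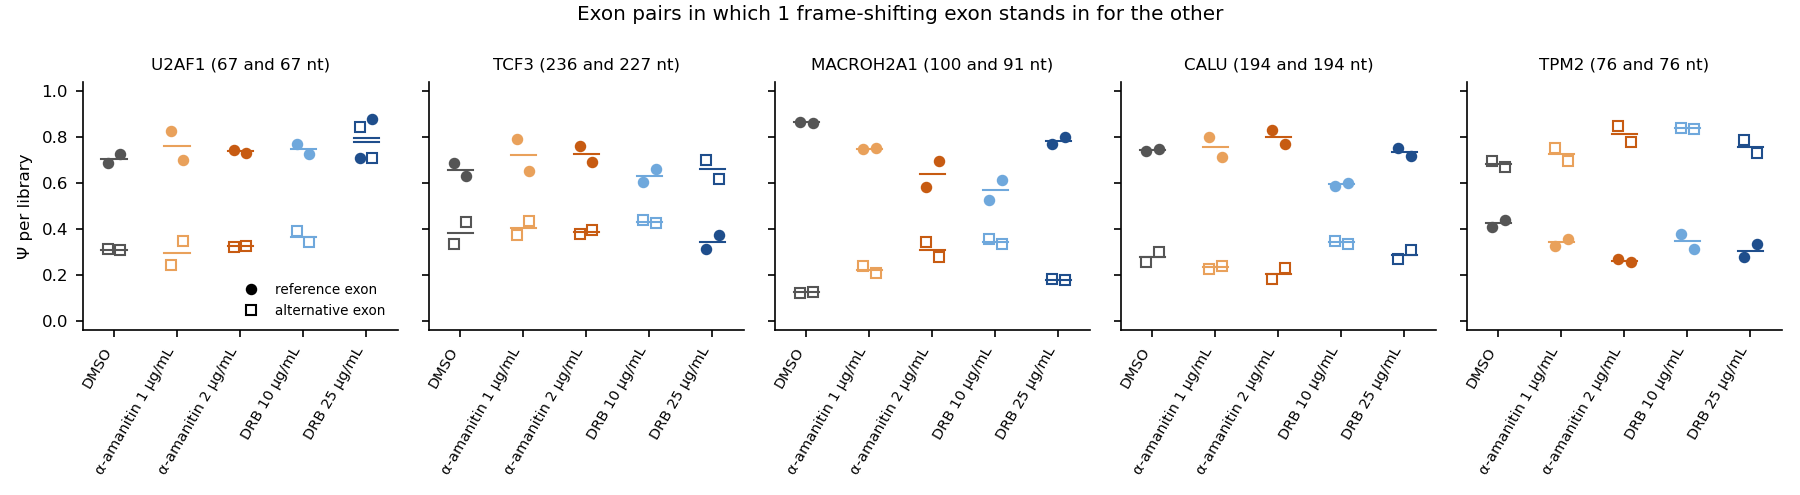
Ψ (vertical axis, 0 to 1) per library for 5 pairs annotated as mutually exclusive, over DMSO, α-amanitin 1, α-amanitin 2, DRB 10 and DRB 25 (horizontal axis). Filled circles are the reference exon, open squares the alternative exon and short lines the group means. The alternative exon of U2AF1 rises to 0.843 and 0.709 at the high DRB dose while the reference exon, at 0.707 and 0.878, gave no call, TCF3 crosses over there, MACROH2A1 is closest with DRB 10, and CALU and TPM2 gave no call against DMSO.

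CALU, a calcium-binding protein of the secretory pathway, and TPM2, a tropomyosin, have pairs of exons of 194 nt and of 76 nt. None of these 4 exons passed against DMSO in any treatment, with the lowest adjusted p for a reference exon at 0.0567 for TPM2 with DRB 25. Over the 25 tested exons that replace a neighbour of the reference transcript, 11 passed with DRB 25, 4 higher and 7 lower. This is 44%, beside 51.6% of all exons tested and 33.1% of those with the same minimum of reads.

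A list of splicing factors and regulators held 51 exons in 28 genes. At DRB 25, 49 were tested, 9 were higher and 15 lower, where all exons tested gave 8.16% higher and 43.4% lower and those with the same minimum of reads 11.9% and 21.2%. The 15 lower rows included 9 of HNRNPH1 that share reads. The higher rows lay in SRSF3, SON, CCNL2, U2AF1, RBM4, RBM39 and DDX39A. Of 17 tested clear cassettes of the list 4 were higher and 1 lower, beside 10.7% and 23.9% of all clear cassettes tested. At DRB 10, 2 of the 49 tested exons of the list were higher and 7 lower. Of all exons tested 1.32% were higher and 2.91% lower there, and of those with the same minimum of reads 3.37% and 5.32%.

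The exon of 139 nt of HNRNPH1, an RNA-binding protein of G-rich motifs, was at 0.804 and 0.883 in DMSO, 0.738 and 0.873 with α-amanitin 1, 0.538 and 0.815 with α-amanitin 2, 0.422 and 0.495 with DRB 10, and 0.488 and 0.718 with DRB 25. Coding transcripts hold this exon in the annotation, 14 of them, while 6 transcripts annotated as NMD targets skip it. Both DRB groups lay below DMSO, and passed with DRB 10 (-0.383, adjusted p = 0.0319) and with DRB 25 (-0.214, adjusted p = 0.017). Limma on log2 odds called neither (adjusted p = 0.0838 and 0.0737).

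DDX39A, a helicase of mRNA export, included its exon of 185 nt with a stop codon at 0.052 and 0.034 in DMSO, 0.129 and 0.044 with α-amanitin 1, 0.342 and 0.171 with α-amanitin 2, 0.260 and 0.155 with DRB 10, and 0.301 and 0.111 with DRB 25. The replicates were far apart, and the calls with DRB 10 (adjusted p = 0.0489) and DRB 25 (adjusted p = 0.0132) were each lost when replicate 1 of the dose was left out (adjusted p = 0.174 and 0.0846). RBM39, a coactivator and splicing regulator, included its 73-nt exon at 0.202 and 0.135 in DMSO and at 0.354 and 0.348 with DRB 25 (adjusted p = 0.026, and 0.137 without replicate 2 of DMSO). HNRNPL, which binds CA repeats, included its exon of 70 nt with a stop codon at 0.033 and 0.022 in DMSO, 0.130 and 0.121 with DRB 10, and 0.033 and 0.023 with DRB 25. Its rise with DRB 10 passed (0.099, adjusted p = 0.0155), and the difference between the DRB doses passed too (-0.099, adjusted p = 0.00394).

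Some of the largest changes came from rows with reads at 1 splice site only, where the whole exon cannot be inferred. The row of 1061 nt in SRSF3, an SR protein that regulates its own transcript through a poison exon, begins at the 3′ splice site of such an exon and had 20 inclusion reads beside 1226 exclusion reads in DMSO, and 96 beside 25 with DRB 25. Ψ was 0.008 and 0.008 in DMSO, 0.011 and 0.004 with α-amanitin 1, 0.030 and 0.016 with α-amanitin 2, 0.023 and 0.012 with DRB 10, and 0.660 and 0.656 with DRB 25. The high DRB dose stood alone (change 0.649, adjusted p = 3.28e-05), while the level of the gene fell by 2.63 on the log2 scale (SE 0.19). The stop inside the added row is shown above. SON, a protein of nuclear speckles, had a row of 1511 nt at 0.167 and 0.074 in DMSO and at 0.722 and 0.625 with DRB 25 (adjusted p = 0.00147), with the 6 other treated libraries between 0.056 and 0.2.

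Further rows of this kind passed with DRB 25. MAX, the partner of MYC, had a 140-nt row with reads at its 5′ splice site only, at 0.208 and 0.179 in DMSO, 0.349 and 0.190 with α-amanitin 1, 0.176 and 0.400 with α-amanitin 2, 0.622 and 0.593 with DRB 10, and 1.0 and 1.0 with DRB 25 (change 0.807, adjusted p = 0.00066). Both DRB groups of MAX lay above DMSO, and the α-amanitin 2 libraries lay on either side of it. ANKRD11, a chromatin regulator, had a row of 2087 nt at 0.155 and 0.176 in DMSO, 0.327 and 0.262 with α-amanitin 1, 0.685 and 0.545 with α-amanitin 2, 0.413 and 0.343 with DRB 10, and 1.0 and 0.797 with DRB 25 (adjusted p = 0.000571). In ANKRD11 every treated library was above DMSO. CFLAR, the caspase-8 inhibitor FLIP, had a row of 34 nt with reads at its 3′ splice site only, at 0.581 and 0.636 in DMSO, 0.484 and 0.512 with α-amanitin 1, 0.184 and 0.238 with α-amanitin 2, 0.143 and 0.074 with DRB 10, and 0.041 and 0.055 with DRB 25. As in SAT1, the higher dose of each drug lay below the lower dose, and the change passed with DRB 25 (adjusted p = 0.000292) and with DRB 10 (adjusted p = 0.00851, and 0.0961 without replicate 2 of that dose).

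The 3 calls with α-amanitin 2 were the 91-nt exon of MACROH2A1, a row of 628 nt in RPS24 and a row of 100 nt in CRYZ. The rows of RPS24 and CRYZ were not clear cassettes. No AG stands before the RPS24 row and no GT after the CRYZ row, so a whole spliced exon cannot be inferred from either. RPS24, a protein of the small ribosomal subunit, had a Ψ of 0.021 and 0.023 in DMSO, 0.032 and 0.033 with α-amanitin 1, 0.049 and 0.050 with α-amanitin 2, 0.157 and 0.198 with DRB 10, and 0.036 and 0.044 with DRB 25. Replicates agreed closely, every treated library was above DMSO, and DRB 10 was the highest (adjusted p = 7.41e-06). CRYZ, a quinone reductase, had 0.542 and 0.403 in DMSO, 0.250 and 0.253 with α-amanitin 1, 0.116 and 0.109 with α-amanitin 2 (adjusted p = 0.0307), 0.098 and 0.081 with DRB 10 (adjusted p = 0.00575), and 0.263 and 0.440 with DRB 25 (adjusted p = 0.647). Each of the 3 α-amanitin calls was lost without either DMSO library. Between the α-amanitin doses 0 of 727 exons passed, with 0% of all exons called, 77 at an unadjusted p below 0.05, 0 by limma on log2 odds and 110 by Fisher's exact test.

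DLGAP5, a protein of the mitotic spindle, gave the largest positive change with α-amanitin 2 among clear cassettes, although it did not pass there. Its 91-nt exon had a Ψ of 0.216 and 0.077 in DMSO, 0.463 and 0.250 with α-amanitin 1, 0.825 and 0.608 with α-amanitin 2, 0.688 and 0.670 with DRB 10, and 0.273 and 0.619 with DRB 25. Every treated library was above both DMSO libraries. The change of 0.573 with α-amanitin 2 had an adjusted p of 0.0596, and that of 0.540 with DRB 10 passed (adjusted p = 0.00575), though not by limma on log2 odds (adjusted p = 0.0703). With DRB 25 the exon had 16 inclusion and 8 exclusion reads and the level of the gene fell by 4.82 on the log2 scale (SE 0.61).

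The DRB doses were also compared with each other, and the high DRB dose with α-amanitin 2, in contrasts that hold no library used to choose the exons. Against DRB 10, DRB 25 gave 167 calls of 612, 66 higher and 101 lower, in 114 genes, or 27.3%. All exons gave 43.7% (7.04% higher and 36.6% lower), and exons with the same minimum of DMSO reads 28.5% (12% higher and 16.5% lower). Clear cassettes gave 13 higher and 39 lower of 205, and without replicate 2 of DRB 10 the count of all calls was 100. Against α-amanitin 2 the high DRB dose gave 148 calls, 58 higher and 90 lower, or 24.2%. All exons gave 38.2% (5.21% higher and 33% lower), and those with the same minimum 26.1% (9.66% higher and 16.4% lower). Clear cassettes gave 18 higher and 31 lower. The comparisons with DMSO share their 2 control libraries, so their calls are not independent of each other.

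Of the exons with the most reads in DMSO, 2 lay at the upper end of the Ψ scale, where a further rise cannot be seen. A row of 235 nt in EEF1A1, translation elongation factor 1α, had a Ψ of 0.999 to 1.0 in all 10 libraries on 75382 inclusion reads in DMSO. The 95-nt exon of RPS3 lay between 0.993 and 1.0. Neither passed in a comparison with DMSO. In genes of such depth small steps could be called. The 172-nt exon of RPS9 with a stop codon went from 0.016 and 0.018 in DMSO to 0.004 and 0.005 with DRB 25 (adjusted p = 0.00216), and the 97-nt exon of RPS15A from 0.011 and 0.007 to 0.023 and 0.022 (adjusted p = 0.00938, and 0.114 without replicate 2 of DMSO).

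The exons called with DRB 25 differed in composition by direction. The 22 clear cassettes called higher had a median GC content of 55.17%, the 49 called lower 46.51% and the 134 not called 50.36%. Their median lengths were 135, 103 and 118 nt. At least 7 of 9 matches in the 5′ splice site were found in 22.7% of the exons called higher, 57.1% of those called lower and 37.3% of those not called, against 45.7% of constitutive coding exons. The pyrimidine count before the 3′ splice site had medians of 14, 14 and 13.5 of 18. As these sets were formed from the calls, the values are a description without a test, and whether GC content had a part in the counts was not tested.

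The level of the host genes was followed from split reads summed per gene, with limma. Such levels are scaled to each library, so a rise or fall is relative to the other genes and not an amount of RNA per cell. Of 414 host genes tested 0 passed with α-amanitin 1, 12 were higher and 42 lower with α-amanitin 2, 25 higher and 62 lower with DRB 10, and 117 higher and 142 lower with DRB 25. These were 13.0%, 21.0% and 62.6% for the last 3 comparisons, against 6.36%, 14.8% and 61.3% of all genes tested. All genes gave 2.46% higher and 3.9% lower with α-amanitin 2, 8.28% and 6.56% with DRB 10, and 20.2% and 41.1% with DRB 25. Leaving out any 1 library of the contrast ended all host gene calls with DRB 10, and with α-amanitin 2 it left 33 without replicate 2 of the dose and 0 otherwise. The median log2 change with DRB 25 was -0.09 for host genes and -1.01 for all genes. Whether the change in a gene's level had a part in the Ψ of its exon was not tested.

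Other lists held few exons. Of 6 tested exons of a mitosis list, which held 10 in 7 genes, 3 were higher and 2 lower with DRB 25. All exons tested gave 8.16% higher and 43.4% lower in this comparison, and those with the same minimum of reads 11.9% and 21.2%. The NMD list held 1 exon, a row of 398 nt in MAGOH, a core protein of the exon junction complex, which went from 0.667 and 0.725 in DMSO to 0.317 and 0.314 (adjusted p = 0.00113). The RNA polymerase II list held 1, a row of 1012 nt in the TFIID subunit TAF9, which went from 0.383 and 0.379 to 1.0 and 1.0 (adjusted p = 0.00152). Neither row was a clear cassette. No AG stands before the MAGOH row and no GT after the TAF9 row, so a whole spliced exon cannot be inferred from either. Of 7 exons in 3 zinc-finger genes 6 were tested and 0 passed in this comparison.

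At the minimum of reads, the exons just inside were 2 rows of AKAP17A, a pseudoautosomal gene whose copies share their reads (20 inclusion and 68 exclusion reads in DMSO), and a row of 367 nt in ADD1 (20 and 97). Just outside were exons of METTL6, TJP1 and ASXL1, each with 19 inclusion reads. Rows in families of near-identical genes, among them SERF1A and SERF1B, GOLGA8B, POM121C and ZNG1C, cannot be assigned to 1 copy by short reads and their values are uncertain.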

How the data were processed

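RNA of A549 cells was sequenced by the authors in 10 libraries, 2 per group. The deposited tables give counts of split reads per exon (inclusion and exclusion) and per intron, made by the authors with the IPSA pipeline on GRCh37. The counts stand in a text field, so the unit was recorded as other, and the deposited score column was not used. The submitters' processing notes name STAR 2.7.3a. The methods of the study give another STAR version.

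Here counts were read with Python 3.11.15 (pandas 2.3.3, numpy 2.4.6), annotation was GENCODE release 44 lifted to GRCh37, sequences were read with pysam 0.24.0 and figures drawn with matplotlib 3.10.9. Exons with at least 10 in the denominator of Ψ in each library, and at least 10 inclusion and 10 exclusion reads over the fit, were tested in R 4.3.3. The test was a quasi-binomial model of inclusion and exclusion reads, with dispersion moderated by limma 3.58.1 and floored at 1, a two-sided F test and Benjamini-Hochberg adjustment over all exons tested. DMSO and both doses of a drug (6 libraries) shared a fit, and DRB was compared with α-amanitin in a fit of all 10 libraries. Gene levels were tested with limma voom on split reads summed per gene. On simulated data for the comparison of 25 μg/mL DRB with DMSO, in which 200 of 10875 exons were changed, 49% of changes of 2 and 86% of changes of 3 in log2 odds were recovered when the spread was 0.005. With a spread of 0.02 these shares were 20% and 60%. False calls made up 2.9% of the calls at the first spread and 4.8% at the second. In the data 51.6% of the exons were called, and the spreads were not fitted to the data, so recovery there can differ.

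Exons, gene lists and tests were chosen with earlier results of these data known. Named exons were, per contrast, the 5 with the largest rise and the 5 with the largest fall among calls without overlap of the groups, the 5 with the most reads in DMSO and the leading exons of each gene list. SAT1, U2AF1, TCF3, COX20, MRPS18C, EMC4, UPP1, SLC38A2, STRAP, KIFC3, CTSC, RHBDD2, BRD2, TM4SF1, DDX39A, RBM39, STK11, G6PC3, PYCR1, LTB, KLC1, RPS9, RPS15A, MOK, the 100-nt exon of MACROH2A1, CALU and TPM2 were added, in whole or part, after their values were seen, as were XRCC6, HNRNPL, UQCRH, TIMM17B, MRPL52 and HNRNPH1 where the rule did not name them. Some exons that the rule named are not reported here. Alternatives were Fisher's exact test, limma on log2 odds, other samples in the fit, a replicate block, other filters, unlisted reads filled with the most that the listing minimum can hide, and leaving out each library. The clear cassettes, those with even reads and the filled reads were chosen after seeing the data.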

Additional observations from a re-analysis of the deposited data

How the results depend on the processing

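The number of frame-shifting exons called moved with the test and the libraries in the fit. The cause of each move below was not tested except where fewer libraries, exons or reads entered the fit. Fisher's exact test on summed reads, which takes no spread between libraries, called 62 exons with α-amanitin 1, 250 with α-amanitin 2, 202 with DRB 10, 324 with DRB 25, 110 between the α-amanitin doses, 302 between the DRB doses and 247 between DRB 25 and α-amanitin 2. For α-amanitin 2, with 3 calls, limma on log2 odds gave 0, the 2 groups alone 94, all 10 libraries 12, a denominator of at least 30 gave 14, no filter 1, filled reads 46 and clear cassettes 1. For DRB 10, with 45, limma gave 17, the 2 groups alone 153, no filter 23, filled reads 70, a minimum of 50 reads 23 and clear cassettes 15. For DRB 25, with 183, a minimum of 50 reads left 62 and clear cassettes 71, and for the contrasts with DRB 10 and with α-amanitin these were 58 and 52, and 49 and 49. Filled reads gave 1 call between the α-amanitin doses. Leaving out a library in turn gave 0 to 4 calls with α-amanitin 1, 0 to 37 with α-amanitin 2, 28 to 47 with DRB 10, 148 to 191 with DRB 25, 0 to 12 between the α-amanitin doses, 100 to 176 between the DRB doses and 111 to 118 between DRB and α-amanitin.

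Libraries share a replicate number across groups, but the correlation of the deviations of same-numbered libraries over 3345 exons was -0.071 to 0.135, so the numbers were not taken to pair them. With the replicate block 0 exons were called with α-amanitin 2, 25 with DRB 10 and 181 with DRB 25, and 2, 166, 74 and 237 host genes in the 4 comparisons with DMSO. The calls it ended with DRB 10 included those of DLGAP5 (adjusted p = 0.0536), CFLAR (adjusted p = 0.0543) and SAT1 (adjusted p = 0.0615), and with DRB 25 that of KLC1 (adjusted p = 0.0533).

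The median change in Ψ, taken where Ψ had a denominator of 10 or more in both groups, was -0.00506, -0.00628, -0.00216 and -0.00729 from the lowest α-amanitin to the highest DRB dose. In clear cassettes it was -0.013, -0.0135, -0.00491 and -0.0193. With a minimum of 50 reads it was 0.00016 with α-amanitin 2 and 0.012 with DRB 10, where the mean of libraries gave 0.0 and filled reads -0.000625. Leaving out a library gave -0.00552 to 0.0, -0.00961 to -0.00309, -0.00614 to 0.0 and -0.0145 to -0.00622. Host genes called without a library numbered 0 to 33 with α-amanitin 2, 0 with DRB 10 whichever was left out, and 187 to 230 with DRB 25, where scaling by total reads gave 286.

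Of the named calls that passed, 0 of 3 with α-amanitin 2, 6 of 21 with DRB 10, 38 of 53 with DRB 25, 29 of 47 between the DRB doses and 24 of 42 between DRB and α-amanitin passed under every alternative run, and none changed sign.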
